A study of Mus musculus with 18 samples.

Results

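The core of the Notch pathway was followed in sorted mouse trachea and lung cells through 10 genes: the receptors Notch1, Notch2, Notch3 and Notch4, the ligands Jag1, Jag2, Dll1 and Dll4, and the target genes Hes1 and Hey1. Each gene was found by its Entrez identifier in the gene-level read counts, so the 10 genes were 10 of 27179 genes in the files, and all 10 passed the filter on low counts that left 17989 genes for testing. RNA sequencing had been carried out on 18 libraries from untreated C57BL/6 mice, 3 libraries for each of 6 populations isolated by flow cytometry. Tracheas of mice 1 to 3 gave NGFR-positive cells, called basal stem cells (BSCs) here, and the NGFR-negative, non-basal cells of the same animals. Lungs of mice 4 to 6 each gave the other 4 populations: EpCAM-positive CD104-positive CD24hi airway cells, described as enriched in ciliated cells, EpCAM-positive CD104-positive CD24lo airway cells, described as enriched in club cells, EpCAM-positive CD104-low alveolar cells, and EpCAM-negative, non-epithelial cells. The labels gave neither age nor sex, while the paper's methods state both for its C57BL/6 mice, which were males. The labels named no transgene and no treatment. The lung gates were set on cells negative for the blood marker CD45 and the endothelial marker CD31.

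Notch receptors sit in the plasma membrane and are engaged by Jagged and Delta-like ligands on a neighbouring cell. Ligand binding lets proteases cut the receptor, and its intracellular part enters the nucleus, where it joins RBPJ and Mastermind proteins and turns on genes such as Hes1 and Hey1, which encode transcriptional repressors. In the airway epithelium the pathway is known to guide the progeny of basal cells toward secretory rather than ciliated fates, and in blood vessels it is known for its part in endothelial and mural cell identity.

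Tracheal libraries held 29317215 to 32993621 counted reads and lung libraries 9811503 to 13208897, so a gene with few reads was measured less precisely in lung. The paper's methods state fewer reads per mouse sample than the tracheal libraries held. The counts were used as deposited, and the source of that difference is not known. Basal, ciliated and club marker sums were highest in the gates described as holding those cells, but none was confined to them. The summed level of 6 basal markers was 4100 to 4491 RPKM (reads per kilobase of counted gene length, scaled to normalised library size) in BSCs and still 1170 to 1547 RPKM in tracheal non-basal cells. Sums of 5 ciliated markers reached 3932 to 4718 RPKM in CD24hi cells and at most 748 RPKM elsewhere, and sums of 5 club markers were highest in CD24lo cells, at 511721 to 714574 RPKM. CD24hi cells still held 82762 to 108174 RPKM of club markers, and CD24lo cells 6131 to 8748 RPKM of 6 alveolar type 2 markers. In the trachea, ciliated sums of non-basal cells (222 to 317 RPKM) overlapped those of BSCs (184 to 256 RPKM). At an edgeR adjusted p under 0.05, however, 4 of the 5 ciliated markers were lower in BSCs and 0 higher. Of all genes tested, 26.2% were lower and 21.9% higher. Fibroblast sums, of 5 markers, were 5389 to 5597 RPKM in EpCAM-negative cells, 159 to 163 RPKM in BSCs and 28.1 to 42.8 RPKM in tracheal non-basal cells. By the same test 1 of these 5 markers was higher in BSCs than in non-basal cells and 4 were lower. The higher BSC sum was thus not shared by the markers as a set. Although the gates left out CD31-positive cells, 8 endothelial markers summed to 77.1 to 414 RPKM in every lung library, whereas the tracheal libraries held 0.475 to 1.39 RPKM and Cdh5, Cldn5 and Emcn had no read in any BSC library. In bulk libraries, fewer cells of a type and less RNA per cell cannot be told apart. The replicates of a population came from different mice. The p-values below use a spread between replicates that is estimated over all 6 populations together. They ignore the pairing of populations by mouse, except where the mouse is named as a block.

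By their means the receptors peaked in different populations, Notch1 in BSCs, Notch2 in tracheal non-basal cells, and Notch3 and Notch4 in EpCAM-negative cells. Notch1 levels were 29.3, 28.4 and 28.0 RPKM in the BSCs of mice 1 to 3, and were lowest in tracheal non-basal cells of the same mice, at 4.99, 4.93 and 6.32 RPKM. Its means then ran from 13.8 ± 2.42 RPKM (SD, n = 3) in CD24hi cells through 9.54 ± 0.735 in CD24lo cells, 7.14 ± 0.206 in alveolar cells and 6.88 ± 0.430 in EpCAM-negative cells. Alveolar and EpCAM-negative cells were the only neighbours in that order whose libraries overlapped. Notch2 showed the opposite order in the trachea, with 41.1, 45.3 and 44.0 RPKM in non-basal cells against 13.9, 14.8 and 15.5 RPKM in BSCs. CD24lo cells came next to the non-basal cells, with 17.7, 24.9 and 26.2 RPKM in mice 4 to 6. The 3 lowest populations, EpCAM-negative, alveolar and CD24hi, lay between 10.1 and 14.0 RPKM and each overlapped its neighbour, as EpCAM-negative cells did with BSCs, and with scaling by library size alone the lowest mean was that of alveolar cells rather than CD24hi cells.

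Notch3, a receptor known for its role in the mural cells around vessels, was highest in EpCAM-negative cells at 16.4, 18.8 and 23.5 RPKM. CD24lo cells (7.35, 7.18 and 9.83 RPKM) and tracheal non-basal cells (7.83, 7.55 and 8.49 RPKM) overlapped below it. BSCs held 3.34, 2.95 and 3.07 RPKM, CD24hi cells 3.23, 1.85 and 1.33 RPKM, and alveolar cells only 0.754, 1.12 and 0.826 RPKM. Thus every alveolar library lay below every other library. Notch4, a receptor of vascular endothelium, was measured at 5.47, 4.74 and 3.62 RPKM in EpCAM-negative cells, above the 1.15, 2.24 and 1.44 RPKM of alveolar cells. The libraries of both airway gates overlapped those of each of these populations. Mouse 4 gave the highest Notch4 of both airway gates, 4.75 RPKM in CD24hi cells and 5.83 RPKM in CD24lo cells, against 1.19 to 2.30 RPKM in the airway libraries of mice 5 and 6. In the trachea Notch4 was near the limit of detection, with 13 to 31 reads a library.

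**Figure D1:**
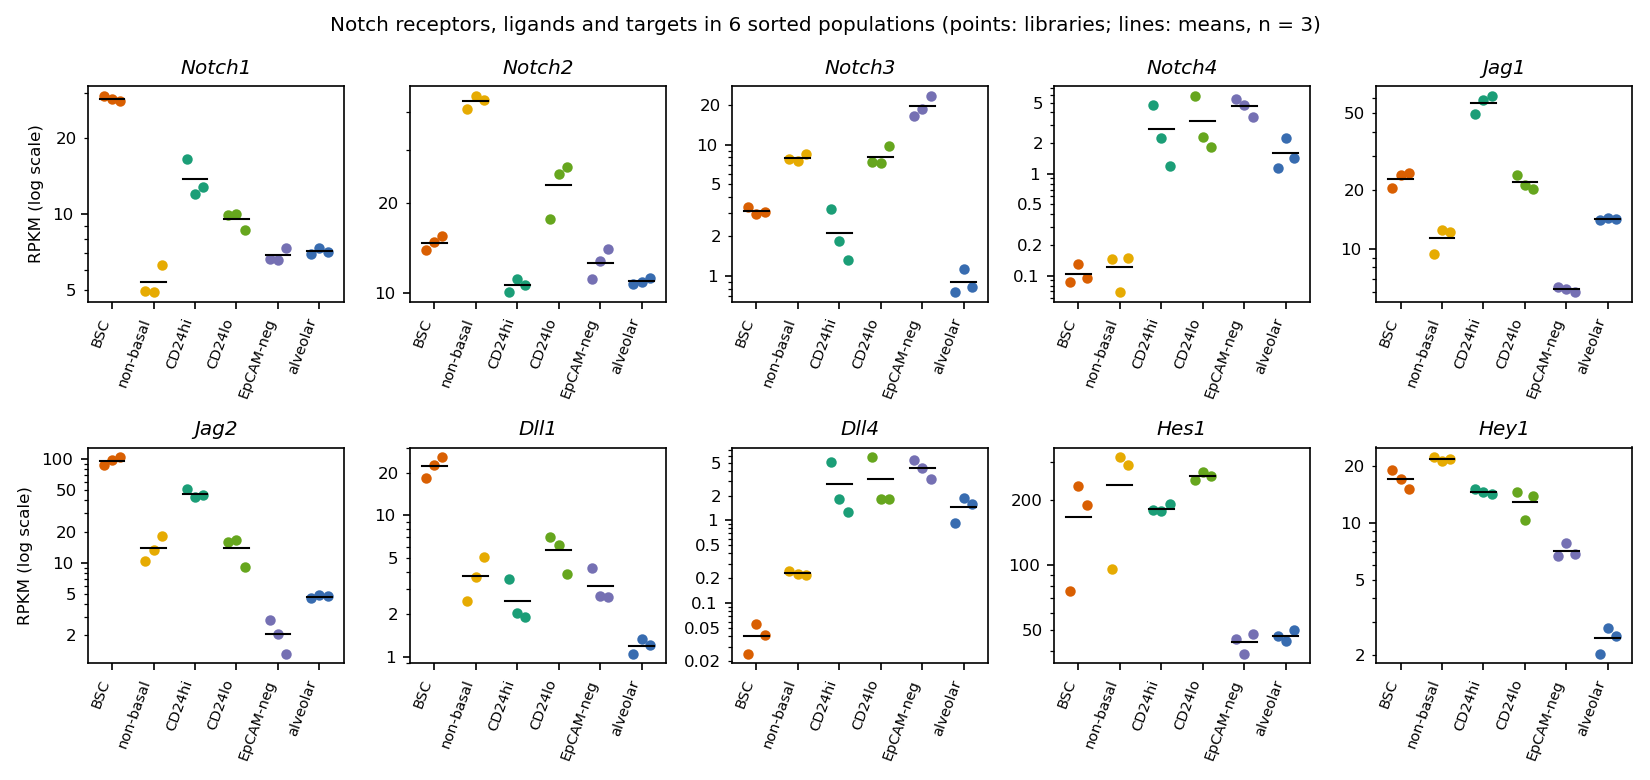
Level of each of the 10 genes (RPKM, log axis; the scale differs between panels) in 6 sorted populations, 1 point per library in the order of the mouse numbers, with a line at the mean of 3 libraries. Notch1, Jag2 and Dll1 were highest in BSCs, Notch2 in tracheal non-basal cells, Jag1 in CD24hi cells and Notch3 in EpCAM-negative cells, and Hes1 was low in both tracheal libraries of mouse 1.

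The receptors therefore divided differently among the populations. RPKM is scaled by gene length, which lets levels be compared between genes within a library. Notch1 made up 61.4 ± 1.42% (SD, n = 3) of the summed level of the 4 receptors in BSCs and 9.49 ± 1.13% in tracheal non-basal cells, where Notch2 made up 76.3 ± 1.87%. In the lung, Notch1 had the greatest mean share in CD24hi cells, 47.0 ± 2.68%, Notch2 in CD24lo and alveolar cells, 51.9 ± 7.35% and 53.2 ± 2.42%, and Notch3 in EpCAM-negative cells, 44.5 ± 3.61%. The summed receptor level was less spread than its parts, from 20.6 ± 1.04 RPKM in alveolar cells to 57.0 ± 2.55 RPKM in tracheal non-basal cells.

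**Figure D2:**
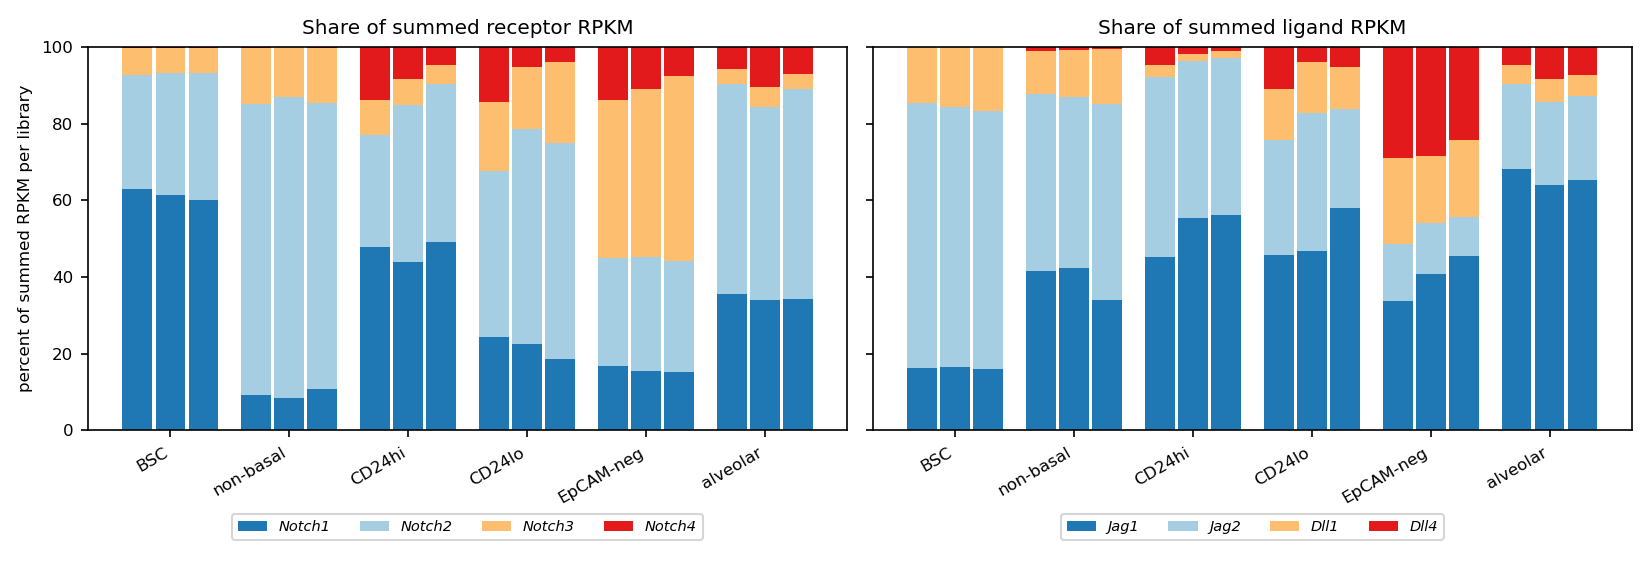
Share of each receptor (left) and each ligand (right) in the summed RPKM of the 4 receptors or 4 ligands, in percent, 1 bar per library grouped by population. Notch1 took 60.0 to 62.9% of the receptor level in BSCs and Notch2 took 74.6 to 78.3% in tracheal non-basal cells, and Jag2 took 67.4 to 69.1% of the ligand level in BSCs.

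Summed ligand levels spread more widely than summed receptor levels. The 4 ligands summed to 142 ± 14.7 RPKM in BSCs and 108 ± 1.85 RPKM in CD24hi cells, then 44.6 ± 8.78 in CD24lo, 29.3 ± 6.67 in tracheal non-basal, 21.6 ± 0.899 in alveolar and 15.7 ± 2.86 RPKM in EpCAM-negative cells. Jag2 had the highest mean of the 4 ligands in both tracheal populations and Jag1 in the 4 lung populations. Jag2 stood at 87.0, 98.9 and 104 RPKM in BSCs, 51.2, 43.6 and 44.8 RPKM in CD24hi cells, and 2.81, 2.04 and 1.33 RPKM in EpCAM-negative cells, a 46.9-fold span of the means. Tracheal non-basal (10.4, 13.3 and 18.3 RPKM) and CD24lo cells (15.8, 16.5 and 9.17 RPKM) overlapped between these levels, above alveolar cells at 4.56 to 4.86 RPKM. Jag1 was highest in CD24hi cells rather than BSCs. Its CD24hi libraries held 49.4, 58.7 and 61.5 RPKM, more than the 20.5, 23.9 and 24.6 RPKM of BSCs and the 24.1, 21.4 and 20.4 RPKM of CD24lo cells, which overlapped. Alveolar cells followed at 14.1 to 14.3 RPKM, tracheal non-basal cells at 9.34 to 12.5 RPKM and EpCAM-negative cells at 5.98 to 6.33 RPKM, and no libraries of these neighbours overlapped. As a share of the ligands, Jag1 was largest in alveolar cells, at 65.8 ± 2.15%.

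Dll1, a Delta-like ligand, stood apart in BSCs with 18.3, 22.6 and 25.7 RPKM. No other library exceeded 7.01 RPKM. CD24lo, tracheal non-basal, EpCAM-negative and CD24hi cells overlapped in turn, with means from 5.68 down to 2.49 RPKM, and alveolar cells were lowest at 1.05, 1.34 and 1.21 RPKM. Dll4, a ligand of arterial and sprouting endothelium, had 3, 7 and 5 reads in the BSC libraries and 25, 22 and 23 reads in tracheal non-basal cells. Its lung levels lay close to those of Notch4. In EpCAM-negative cells Dll4 reached 5.42, 4.35 and 3.18 RPKM, in CD24hi cells 5.10, 1.80 and 1.28 RPKM, in CD24lo cells 5.79, 1.79 and 1.83 RPKM and in alveolar cells 0.945, 1.87 and 1.58 RPKM.

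The 3 ligands that were higher in BSCs than in their non-basal neighbours are shown with the 250 bases before a RefSeq start site of each (GRCm38.p6). HES-family repressors are known to act through class C sites. These ligands did not move together between the airway gates, where Jag1 and Jag2 were higher and Dll1 lower in CD24hi cells. The part of HES repressors in their levels was not tested. A search of both strands for CACGNG, the class C site, found it in 6 of 9 promoter entries covering 8 of the 10 genes (Hes1 and Hey1 had no entry), while 23.5% of 32851 mouse promoters of that length held it. Dll1 had 2 of these entries, both with a match. The promoters were not matched for base composition, so these shares are no test of enrichment. The RBPJ core TGGGAA was in 0 of the 9 entries and in 21.6% of all promoters. Class C matches are in capitals, read 5′ to 3′ on the gene's strand. Jag1 (chr2:137116521-137116770, minus strand) had matches 249 and 171 bases before the start, Jag2 (chr12:112929496-112929745, minus strand) had none, and the outer of 2 Dll1 start sites (chr17:15376933-15377182, minus strand) had 1 match 68 bases before it. The Jag2 window lay inside the annotated gene, whose 5′ end is at 112929812, so the bases upstream of that end were not searched. A match is a string of letters, and binding at it was not measured here.
Jag1: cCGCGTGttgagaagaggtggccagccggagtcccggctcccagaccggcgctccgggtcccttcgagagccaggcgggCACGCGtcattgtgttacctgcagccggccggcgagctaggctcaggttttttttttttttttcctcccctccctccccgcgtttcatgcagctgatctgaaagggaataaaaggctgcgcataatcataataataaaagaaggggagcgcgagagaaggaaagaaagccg
Jag2: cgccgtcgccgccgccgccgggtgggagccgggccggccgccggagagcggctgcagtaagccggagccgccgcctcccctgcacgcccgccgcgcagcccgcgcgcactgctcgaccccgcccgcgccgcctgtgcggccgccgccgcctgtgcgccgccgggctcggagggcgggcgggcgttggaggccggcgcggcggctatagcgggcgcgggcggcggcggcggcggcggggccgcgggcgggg
Dll1: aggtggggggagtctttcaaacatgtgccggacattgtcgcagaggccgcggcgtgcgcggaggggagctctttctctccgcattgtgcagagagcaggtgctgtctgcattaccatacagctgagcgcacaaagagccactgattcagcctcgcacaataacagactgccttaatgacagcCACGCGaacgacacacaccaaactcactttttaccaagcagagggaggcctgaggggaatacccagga

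The targets were present in every library, though at very different levels. By its mean Hes1 was highest in CD24lo cells, at 247, 270 and 258 RPKM, though these overlapped the tracheal non-basal libraries, and CD24hi cells lay below them at 179, 177 and 191 RPKM. Alveolar cells (46.6, 44.5 and 50.0 RPKM) and EpCAM-negative cells (45.2, 38.8 and 48.0 RPKM) were lowest and overlapped. Scaling by library size alone placed the alveolar mean below the EpCAM-negative one. In the trachea the animals differed more than the populations did. BSCs held 76.1, 233 and 190 RPKM of Hes1 in mice 1, 2 and 3, and the non-basal cells 95.6, 316 and 291 RPKM, so that mouse 1 was lowest in both. Hey1 had a different order, with 22.2, 21.2 and 21.7 RPKM in tracheal non-basal cells, 19.1, 17.0 and 15.0 RPKM in BSCs, and 15.2, 14.5 and 14.1 RPKM in CD24hi cells, the last pair overlapping. CD24lo cells overlapped CD24hi cells at 14.4, 10.3 and 13.8 RPKM, EpCAM-negative cells lay apart at 6.66 to 7.79 RPKM, and alveolar cells were lowest at 2.04 to 2.80 RPKM. Hey1 and Hes1 were both low in alveolar cells, but in EpCAM-negative cells only Hes1 lay at the alveolar level.

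Within each mouse Hes1 was lower in BSCs than in non-basal cells, in 3 of 3 mice, at 0.654 to 0.796 of the non-basal level. Because the animals were so unlike, the comparison that ignores the mouse did not separate the populations (log2 fold change −0.49 ± 0.35 SE, edgeR adjusted p = 0.262), whereas with the mouse as a replicate block it did (log2 fold change −0.46, edgeR adjusted p = 0.000566). Without the block, leaving out 1 library at a time gave log2 fold changes from −0.87 to −0.15, the former without non-basal replicate 1 (edgeR adjusted p = 0.0183) and the latter without BSC replicate 1 (edgeR adjusted p = 0.743), both from mouse 1. Without both libraries of that mouse, a choice made after seeing the data, it was −0.52 (edgeR adjusted p = 0.00362). Hes1 was likewise lower in CD24hi than in CD24lo cells in 3 of 3 mice, at 0.656 to 0.741 of the CD24lo level. That difference had an edgeR adjusted p of 0.241 without the mouse block and 0.000220 with it, at a log2 fold change of −0.50 in both fits. Unlike in the trachea, the libraries did not overlap, at 177 to 191 RPKM against 247 to 270 RPKM. The 0.241 came from the fit of all 18 libraries, in which the populations share an estimate of spread. A fit of these gates alone, without the block, gave −0.52 (edgeR adjusted p = 0.0107). In mouse 1 the immediate-early genes Fos, Fosb, Jun, Junb, Egr1, Atf3, Ier2 and Dusp1, which respond within minutes to stimulation and cell handling, were low too, a list chosen after Hes1 had been seen. All 8 of the 8 genes had their lowest BSC level and their lowest non-basal level in mouse 1. Their summed level was 9965 RPKM in BSCs of mouse 1 against 12529 and 12715 RPKM in the other BSC libraries, and 5185 RPKM against 7357 and 7504 RPKM in non-basal cells. Their part in the Hes1 level was not tested.

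**Figure D3:**
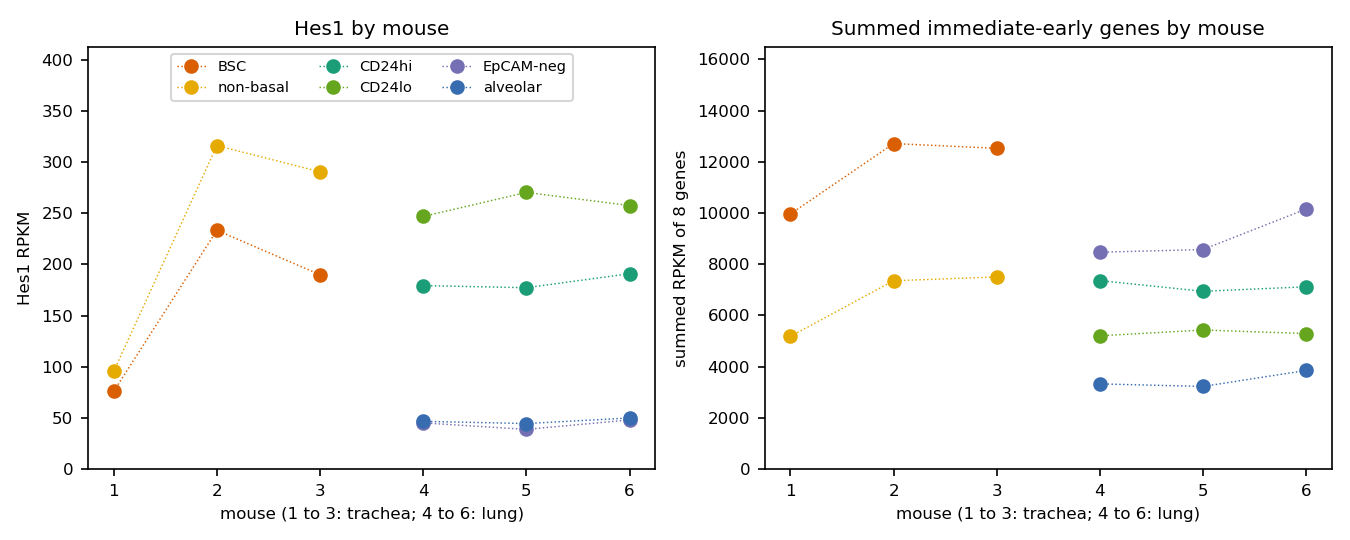
Hes1 level (left, RPKM) and summed level of 8 immediate-early genes (right, RPKM) by mouse, with a colour for each population and dotted lines joining the libraries of one population. Mouse 1 was lowest in both panels for both tracheal populations, and in each mouse Hes1 was lower in BSCs than in non-basal cells and lower in CD24hi than in CD24lo cells.

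The comparison within the trachea asked which parts of the pathway differ between basal cells and their luminal neighbours. Of the 10 genes, 8 were called at an edgeR adjusted p under 0.05, against 48.2% of all genes tested; 4 were higher in BSCs (background 21.9%) and 4 lower (26.2%). The higher genes were Notch1 and 3 of the 4 ligands. Jag2 was 6.93-fold higher (log2 fold change 2.79 ± 0.23 SE, edgeR adjusted p = 2.99e-08), Dll1 5.95-fold (2.57 ± 0.27, edgeR adjusted p = 4.01e-07), Notch1 5.27-fold (2.40 ± 0.12, edgeR adjusted p = 7.78e-11) and Jag1 2.03-fold (1.02 ± 0.11, edgeR adjusted p = 9.59e-07). Each was higher in 3 of 3 mice and no libraries overlapped. Notch2 was 2.95-fold lower in BSCs (−1.56 ± 0.12, edgeR adjusted p = 1.36e-08) and Notch3 2.55-fold lower (−1.35 ± 0.22, edgeR adjusted p = 6.25e-05), also in 3 of 3 mice. The remaining calls were weak. Hey1 was 1.28-fold lower (edgeR adjusted p = 0.0202), but the difference was −0.00 on the log2 scale with scaling by library size alone, and leaving out BSC replicate 2, BSC replicate 3 or non-basal replicate 1 gave adjusted p values of 0.0548, 0.111 and 0.0568. Dll4 was lower on 3 to 7 reads a BSC library (edgeR adjusted p = 0.0222) and was not called without BSC replicate 1, BSC replicate 3 or non-basal replicate 1 (0.0686, 0.0555 and 0.0514).

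Airway CD24hi and CD24lo cells from the same lungs were compared to set ciliated-enriched against club-enriched cells. The test called 6 of the 10 genes, beside 55.0% of all genes, with 3 higher in CD24hi cells (background 27.8%) and 3 lower (27.2%). Higher in CD24hi cells were both Jagged ligands, Jag2 3.36-fold (log2 fold change 1.75 ± 0.23 SE, edgeR adjusted p = 4.49e-06) and Jag1 2.57-fold (1.36 ± 0.12, edgeR adjusted p = 2.22e-08), and Notch1 1.44-fold (0.53 ± 0.12, edgeR adjusted p = 0.000935). Lower were Notch3, 3.79-fold (−1.92 ± 0.23, edgeR adjusted p = 1.77e-06), Notch2, 2.16-fold (−1.11 ± 0.12, edgeR adjusted p = 5.60e-07), and Dll1, 2.29-fold (−1.19 ± 0.29, edgeR adjusted p = 0.00215). Each of these 6 held in 3 of 3 mice with no overlap between libraries. As in the trachea, one population had more Notch1, Jag1 and Jag2 and the other more Notch2 and Notch3, while Dll1 lay on opposite sides. Mural marker sums were 13.1 to 29.9 RPKM in CD24hi and 46.8 to 96.9 RPKM in CD24lo cells. Fibroblast marker sums were 26.7 to 43.3 RPKM and 131 to 154 RPKM. Both moved with Notch3, and their part in its difference was not tested. The log2 fold changes were −0.29 ± 0.43 for Notch4, −0.22 ± 0.46 for Dll4 and 0.18 ± 0.13 for Hey1, not called, though Hey1 was called higher with scaling by library size alone (0.46, edgeR adjusted p = 0.00875) and Dll4 lower without CD24hi replicate 1 (−1.04, edgeR adjusted p = 0.0474).

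Both airway gates were then set against alveolar cells of the same lungs, so these comparisons share their alveolar libraries. In CD24lo cells 8 of the 10 genes were higher and 0 lower, against a background of 48.4% called, 24.2% higher and 24.2% lower. Notch3 was 8.99-fold higher (log2 fold change 3.17 ± 0.26 SE, edgeR adjusted p = 1.52e-08), Hes1 5.49-fold (2.46 ± 0.37, edgeR adjusted p = 2.55e-05) and Hey1 5.25-fold (2.39 ± 0.15, edgeR adjusted p = 3.56e-10). The ligands followed, with Dll1 4.75-fold, Jag2 2.93-fold and Jag1 1.55-fold higher, and then Notch2 at 2.09-fold and Notch1 at 1.34-fold. All 8 were higher in 3 of 3 mice. Notch1 was the weakest, with an edgeR adjusted p of 0.00716 that became 0.0654 after a gene length correction. Notch4 and Dll4 were not called (edgeR adjusted p = 0.0614 and 0.0690), but both were without CD24lo replicate 2 (0.0415 and 0.0321) or replicate 3 (0.0254 and 0.0374), as was Notch4 without alveolar replicate 2 (0.0415). In CD24hi cells 7 genes were higher and 0 lower, against a background of 61.9% called, 30.5% higher and 31.4% lower. Jag2 was 9.83-fold higher (3.30 ± 0.25, edgeR adjusted p = 2.15e-09), Hey1 5.96-fold, Jag1 3.98-fold, Hes1 3.88-fold, Notch3 2.37-fold, Dll1 2.08-fold and Notch1 1.93-fold. Notch2 was not called, at a log2 fold change of −0.04 ± 0.12 (edgeR adjusted p = 0.784), though scaling by library size alone made it 0.28 (edgeR adjusted p = 0.0311). Dll1 was not called by limma voom (adjusted p = 0.0734) or by edgeR without CD24hi replicate 1 (adjusted p = 0.0978). Notch4 and Dll4 differed by 0.77 ± 0.45 and 0.90 ± 0.49 on the log2 scale, not called (edgeR adjusted p = 0.147 and 0.118) except without CD24hi replicate 3 (0.0280 and 0.0328).

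EpCAM-negative cells were compared with the mean of the 3 lung epithelial populations to ask how the non-epithelial compartment differed. Here 7 of the 10 genes were called, beside 69.0% of all genes, 3 higher (background 35.5%) and 4 lower (33.4%). Notch3 was 7.83-fold higher (log2 fold change 2.97 ± 0.17 SE, edgeR adjusted p = 2.36e-11), and no epithelial library reached the EpCAM-negative ones. Jag2 was 7.05-fold lower (−2.82 ± 0.24, edgeR adjusted p = 6.07e-09) and Jag1 4.22-fold lower (−2.08 ± 0.11, edgeR adjusted p = 7.46e-12), again without overlap. Hes1 was 2.96-fold and Notch1 1.42-fold lower than the epithelial mean, but both overlapped the alveolar libraries. Notch4 was 1.88-fold and Dll4 1.85-fold higher (edgeR adjusted p = 0.0215 and 0.0339), and both overlapped the airway libraries of mouse 4. Neither was called without EpCAM-negative replicate 1 (0.101 and 0.165) or replicate 2 (0.0594 and 0.0785), and Dll4 was also lost without any of 5 epithelial libraries (CD24hi replicate 2, CD24lo replicates 2 and 3, alveolar replicates 1 and 3), at edgeR adjusted p values of 0.0530 to 0.0667. Notch2 (−0.13 ± 0.10), Dll1 (0.31 ± 0.24) and Hey1 (−0.12 ± 0.11) were not called, though Notch2 was called lower without CD24lo replicate 1 (−0.19, edgeR adjusted p = 0.0344) and with a gene length correction (−0.31, edgeR adjusted p = 0.00718).

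BSCs and alveolar cells, the progenitor populations that the study set against each other, came from different organs and mice and were sequenced to different depths, which cannot be told apart from cell type. All 10 genes were called, against 66.1% of all genes, with 8 higher in BSCs (background 30.5%) and 2 lower (35.6%). Jag2 was 20.4-fold higher (log2 fold change 4.35 ± 0.26 SE, edgeR adjusted p = 8.32e-11) and Dll1 18.5-fold higher (4.21 ± 0.32, edgeR adjusted p = 2.31e-09). Hey1 followed at 6.94-fold, Notch1 at 4.00-fold, Hes1 at 3.54-fold, Notch3 at 3.46-fold and Jag1 at 1.62-fold. Notch2 was 1.34-fold higher (0.43 ± 0.12, edgeR adjusted p = 0.00524), but a gene length correction made that −0.04 (edgeR adjusted p = 0.804). Dll4 was 34.3-fold and Notch4 15.4-fold lower, beside endothelial marker sums of 0.475 to 0.542 RPKM in BSCs and 77.1 to 142 RPKM in alveolar cells.

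**Figure D4:**
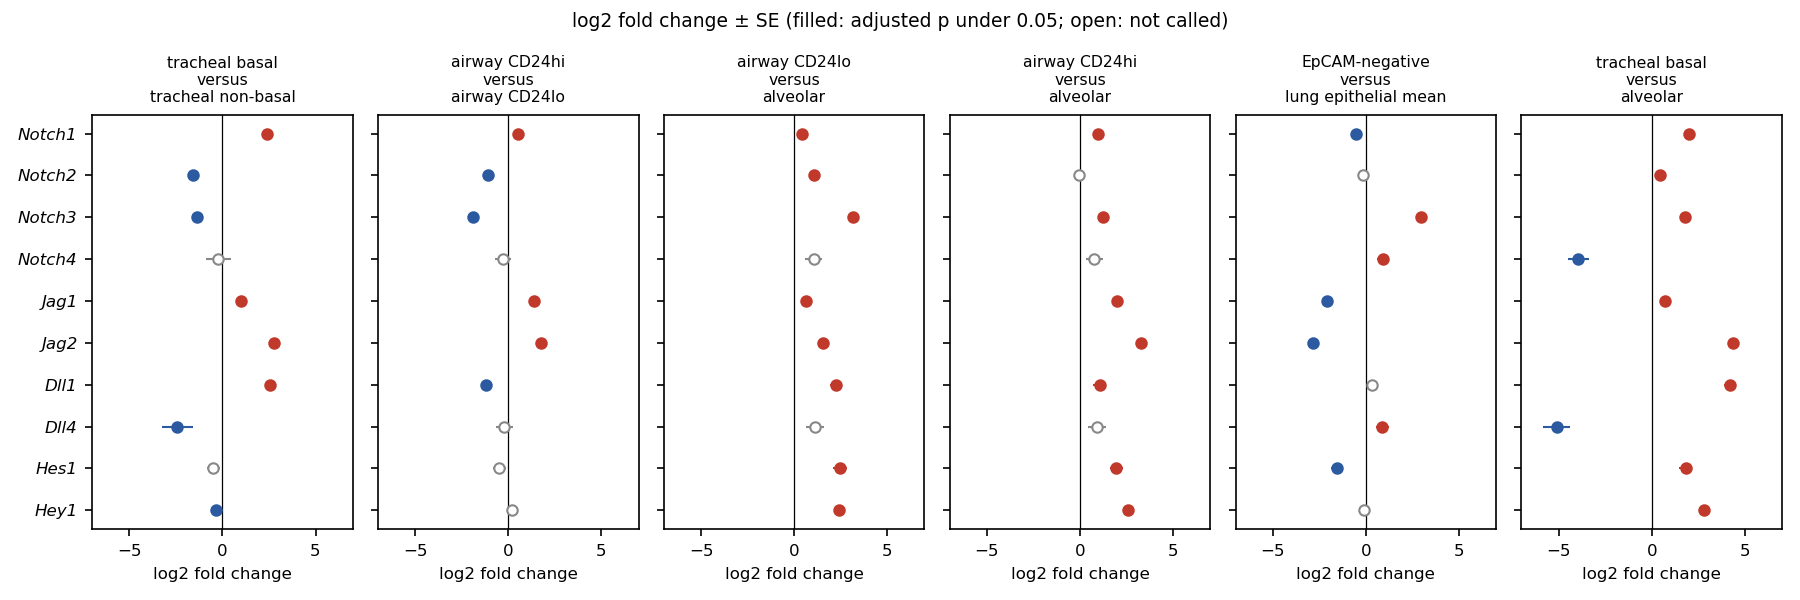
log2 fold change of each of the 10 genes with its standard error in 6 comparisons (first-named population over the other), red for higher and blue for lower at an edgeR adjusted p under 0.05 and open grey for not called. Jag1 and Jag2 were higher in the first-named population in every comparison but that of EpCAM-negative cells, and the widest errors were those of Notch4 and Dll4.

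Notch4 and Dll4 tracked the endothelial markers in the lung. In the 12 lung libraries the sum of Pecam1, Cdh5, Kdr, Tek, Tie1, Emcn, Cldn5 and Egfl7 ran from 77.1 to 414 RPKM, and Notch4 stayed between 1.13 and 1.68% and Dll4 between 1.02 and 1.64% of that sum. The highest sums in the airway gates, 321 RPKM in CD24hi and 414 RPKM in CD24lo cells, were those of mouse 4, as were the highest Notch4 and Dll4. Without the 4 lung libraries of mouse 4, a choice made after seeing the data, the log2 difference between CD24hi and alveolar cells was −0.09 for Notch4 and −0.16 for Dll4 in place of 0.77 and 0.90. Mouse 4 was left out for its high airway levels, so a smaller difference was built into that choice. The part of endothelial cells in the Notch4 and Dll4 levels was not tested. Notch3 did not keep such a ratio to the 6 mural markers, whose sums were 1064 to 1123 RPKM in EpCAM-negative cells, 13.1 to 96.9 RPKM in the other lung populations and 0.605 to 0.989 RPKM in the trachea. Tracheal non-basal libraries held as much Notch3 as CD24lo libraries while their mural sums were under 1 RPKM. These populations came from different organs and mice. Fibroblast marker sums were also highest in EpCAM-negative cells, and the source of Notch3 in any gate was not tested.

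**Figure D5:**
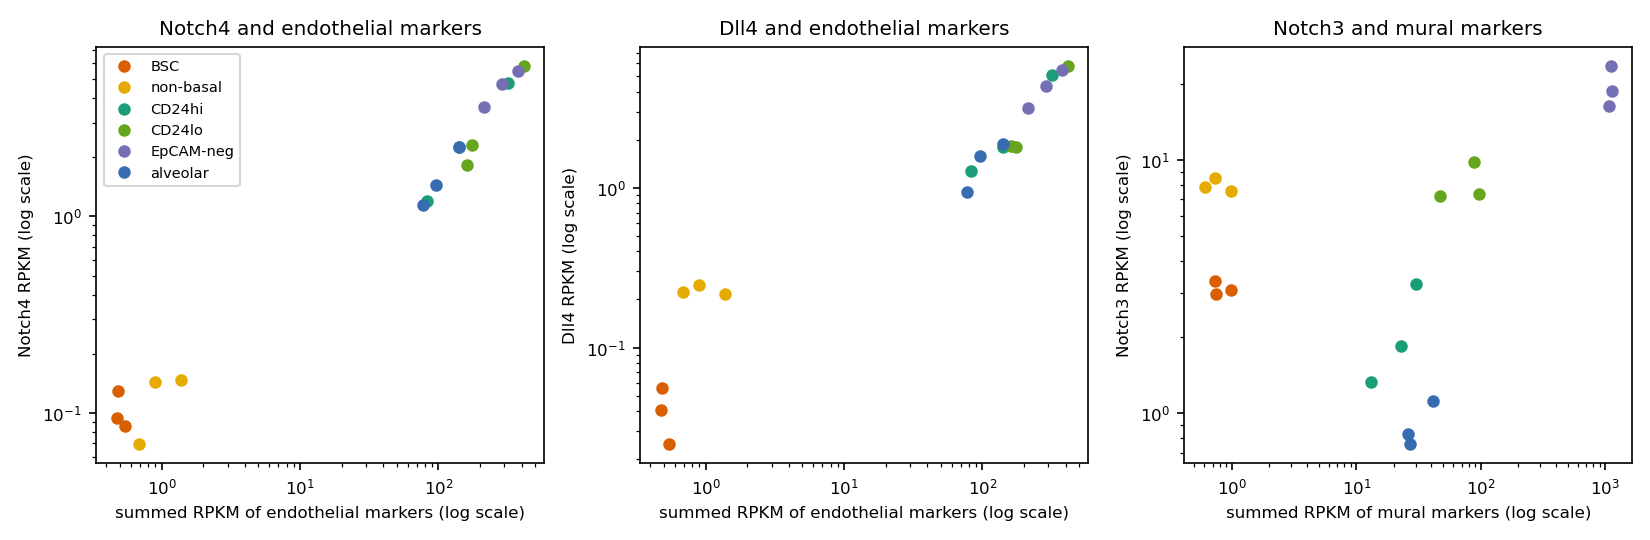
Notch4 (left) and Dll4 (middle) against the summed level of 8 endothelial markers, and Notch3 (right) against the summed level of 6 mural markers, all in RPKM on log axes, 1 point per library coloured by population. Notch4 and Dll4 rose with the endothelial sum over the lung libraries, and tracheal non-basal cells held 7.55 to 8.49 RPKM of Notch3 at mural sums of 0.605 to 0.989 RPKM.

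The rest of the pathway was covered by a list of 58 further genes, of which 56 were tested (Hes5 and Hes7 had too few reads). In BSCs against non-basal cells 28 of the 56 passed the edgeR test, beside 48.2% of all genes, 14 in each direction (background 21.9% higher and 26.2% lower), and the median of their log2 fold changes was 0.03, beside −0.02 over all genes; with scaling by library size alone the split was 33 higher and 10 lower. Dlk2, a non-canonical ligand relative, was 5.37-fold higher in BSCs (33.2, 39.8 and 42.6 RPKM against 5.32, 6.49 and 9.71 RPKM). Lfng, a glycosyltransferase that changes which ligands a receptor answers to, was 2.22-fold higher (edgeR adjusted p = 0.00286), and the corepressor gene Tle4 2.36-fold higher. Lower in BSCs were Neurl1a, a ligand ubiquitin ligase, at 0.134 against 1.26 RPKM, and Dtx1 and Heyl, each with 1 to 3 reads a BSC library against 50 to 73 reads in non-basal cells. The target Nrarp was lower as well, at 3.13, 3.58 and 4.23 RPKM against 6.48, 8.20 and 8.46 RPKM (edgeR adjusted p = 2.40e-05), a gene outside the naming rule and chosen after its values were seen.

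Between the airway gates 42 of the 56 passed, beside 55.0% of all genes, 19 higher (27.8%) and 23 lower (27.2%) in CD24hi cells, or 25 and 11 with scaling by library size alone. The median of the 56 was −0.21 on the log2 scale and that of all genes −0.06. Neurl1a was higher in CD24hi cells by 3.32 on the log2 scale (27.3, 24.8 and 23.6 RPKM against 4.15, 1.71 and 1.59 RPKM). Lfng was 5.93-fold higher, at 45.4, 38.7 and 37.6 RPKM against 11.2, 4.94 and 4.18 RPKM, and Dtx1 10.5-fold higher at lower levels. CD24lo cells instead had 4.53-fold more Nrarp, a feedback target of Notch, at 29.4, 30.1 and 35.9 RPKM against 8.71, 6.69 and 5.64 RPKM (edgeR adjusted p = 6.72e-09). They also had 7.60-fold more Dlk2 and 5.05-fold more Dtx4. No libraries of the gates overlapped for these genes.

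Of the 56 genes, 18 were higher and 17 lower in CD24lo than in alveolar cells, beside 24.2% and 24.2% of all genes, with a median of −0.06 on the log2 scale against 0.03 over all genes. In CD24hi cells 20 were higher and 22 lower than in alveolar cells (26 and 16 with scaling by library size alone), beside 30.5% and 31.4%, with a median of −0.02 against −0.01. Rbpjl, a relative of RBPJ that does not bind the receptor and is known as an activator in pancreatic acinar cells, stood at 140, 134 and 127 RPKM in alveolar cells, and at most 5.44 RPKM in any other library. Hes2 was likewise at 16.2, 11.6 and 17.1 RPKM in alveolar cells and at most 0.840 RPKM elsewhere, and the corepressor gene Tle2 at 79.0, 77.9 and 77.2 RPKM against at most 31.2 RPKM. In the other direction Nrarp was 15.0-fold and Dlk2 44.5-fold higher in CD24lo than in alveolar cells, and Lfng 32.6-fold and Neurl1a 11.3-fold higher in CD24hi than in alveolar cells. Hey2 was 6.72-fold higher in CD24lo cells at a mean of 1.42 RPKM, and Dtx1 was again higher in CD24hi cells, at 2.19 RPKM against 0 to 4 reads an alveolar library.

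In EpCAM-negative cells 26 of the 56 genes were higher and 17 lower than the epithelial mean, beside 35.5% and 33.4% of all genes, with a median of 0.14 on the log2 scale against −0.01. The target genes did not move as one: Heyl was 18.9-fold higher (40.1, 40.6 and 44.5 RPKM) and Hey2 13.5-fold higher (7.17, 7.24 and 7.58 RPKM), while Hes2 and Nrarp were lower. Dlk1 had 36, 13 and 14 reads in the EpCAM-negative libraries and 1 read in all other libraries together. Dlk2 had 0 to 1 read a library and Neurl1a 0.338 RPKM, both called lower. In BSCs against alveolar cells 26 genes were higher and 16 lower (35 and 11 with scaling by library size alone), beside 30.5% and 35.6% of all genes, with a median of 0.30 against −0.09. Dlk2, Lfng and Tle3 (53.4 against 7.60 RPKM) were the highest by fold change, and Hes2, Rbpjl and Heyl the lowest.

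Over the 18 libraries, the genes whose log2 level was most like each of the 10 genes were sought among 10560 genes (10561 for Dll4) whose mean reached 10 CPM, reads scaled to library size, as a description in which the 3 libraries of a population share its cell makeup. Notch4 was most like Sox7 (Pearson r = 0.995), Fendrr (0.993) and Shank3 (0.992), and Dll4 most like Gimap6 (0.992), Ramp2 (0.991) and Podxl (0.987). Jag2 was nearest to Itga3 (0.975), the gene of the integrin alpha 3 subunit, then Bcl7a and Kif21a, and Notch3 to Ccrl2 (0.971), Pdlim3 and Clec2d. Hey1 was nearest to Zbtb7c (0.969), Dll1 to Cemip2 (0.958), Notch2 to Psmd1 (0.957), Jag1 to Prodh (0.953), Hes1 to Rhov (0.942) and Notch1 to Usp28 (0.940).

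Some counts could include reads of overlapping genes, because the strand setting of the counting was not given in the sources used here. In the GENCODE M21 annotation other genes, on either strand, covered 20.5% of the exon bases of Dll1, 9.76% of Notch1, 6.03% of Notch3, 5.56% of Dll4 and 5.02% of Notch2, and none of those of Notch4, Jag1, Jag2, Hes1 or Hey1. The overlap on Dll1 was with A930024N18Rik on the opposite strand.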

How the data were processed

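RNA from sorted cells of 6 populations, 3 mice each, had been sequenced by the authors as 100 bp single-end reads, aligned to mm10 with Rsubread and summarised per Entrez gene with featureCounts; per the labels, bcl2fastq 1.8.4 made the read files. The deposited values are raw read counts with gene lengths. A table of the whole series repeated them and was not used here. All 27179 rows named a gene by identifier, 25275 of which matched a symbol. The 10 genes, the list of 58 further pathway genes and the marker lists were chosen with earlier results of these data known.

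Genes above 0.2 CPM in at least 3 libraries (17989) were normalised by TMM and fitted in a single edgeR 4.0.16 quasi-likelihood model of all 18 libraries with a mean per population (R 4.3.3). A gene was called at a Benjamini-Hochberg adjusted p under 0.05 over all genes tested. RPKM used TMM-scaled library sizes and the deposited lengths. All 10 genes were described; of the further list, up to 3 called genes with the largest rise and 3 with the largest fall were named per comparison; and the 3 genes most like each of the 10 were taken by Pearson correlation of log2 CPM. Promoters came from RefSeq (GRCm38.p6), and 8 of the 10 genes matched an entry.

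Alternatives were limma voom (limma 3.58.1), DESeq2 1.42.0, its scaling within edgeR (RLE), library size alone, a filter at 1 CPM, no filter, a fit of the compared libraries only, the mouse as a replicate block, a gene length correction, thinned tracheal counts and leaving out each library. Same-numbered libraries came from the same animal by the labels. Their deviations from population means correlated at 0.117 to 0.336 over 3 tracheal pairs and −0.06 to 0.278 over 18 lung pairs. No replicate pair matched within sampling noise (smallest chi-square per degree of freedom 3.50). The scripts were tested on simulated data.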

Additional observations from a re-analysis of the deposited data

How the results depend on the processing

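Of 1030 alternative values of single genes, 974 kept their direction and call, 25 lost a call, 18 gained one and 13 changed sign. In the pairing by mouse, the replicate block changed the calls of Hes1 given above and no other call among the 10 genes: it called 9, 7, 8, 7 and 7 of them in the comparisons within an organ. BSCs and alveolar cells came from different mice and share only replicate numbers (10 called with those as a block). Leaving out 1 library at a time called 6 to 8, 6 to 7, 8 to 10, 6 to 9, 5 to 8 and 10 to 10 of the 10 genes, and 25 to 26, 38 to 44, 29 to 33, 38 to 44, 39 to 48 and 39 to 41 of the 56 further genes. Library size alone shifted the middle of all genes' log2 fold changes, to 0.31, 0.21, 0.05, 0.29, 0.05 and 0.29 from −0.02, −0.06, 0.03, −0.01, −0.01 and −0.09, and called 43 (33 higher, 10 lower) rather than 28 further genes between BSCs and non-basal cells.

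The changes of sign were of differences not called as reported, except that of Notch2 between BSCs and alveolar cells. For BSCs against non-basal cells, Notch4 (−0.23) became 0.12 with library size alone and 0.030 without mouse 1. For CD24hi against CD24lo cells, Notch4 (−0.29) ranged from −0.95 to 0.40 with 1 library left out, at 0.07 without CD24hi replicate 3 and 0.40 without CD24lo replicate 1, and Dll4 (−0.22) ranged from −1.04 to 0.59 and became 0.035 with library size alone, 0.01 and 0.12 without CD24hi replicates 2 and 3, and 0.59 without CD24lo replicate 1. For CD24hi against alveolar cells, Notch2 (−0.04) became 0.28 with library size alone and 0.048 in a fit of these libraries only, and Notch4 and Dll4 became −0.085 and −0.16 without mouse 4. For BSCs against alveolar cells, Notch2 (0.43) became −0.035 with a gene length correction. The causes were not tested. In the trachea the folds of Dll4 and Notch4 rest on at most 31 reads a library.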

Other observations

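Rbpj, the gene of the DNA-binding partner of the cleaved receptors, lay between 4.04 and 10.5 RPKM in all 18 libraries. Its level did not differ by test between BSCs and non-basal cells (log2 fold change 0.07 ± 0.09 SE, edgeR adjusted p = 0.578) and was higher in BSCs than in alveolar cells (1.04 ± 0.10, edgeR adjusted p = 3.56e-08). Maml2, a Mastermind coactivator gene, was highest in BSCs, at 9.60, 12.4 and 12.2 RPKM, and lowest in alveolar cells, at 2.34, 1.97 and 1.83 RPKM. Hes6, a HES relative, was higher in CD24hi than in CD24lo cells (1.77 ± 0.09, edgeR adjusted p = 2.76e-10), the opposite direction to Nrarp. These genes were chosen after their values were seen.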
